A study of Rattus norvegicus with 18 samples.

Results

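Ccl2, Ccl7, Ccl3, Ccl4, Ccr1 and Ccr2 encode 4 CC chemokines and 2 of their receptors, and they were followed here in rat soleus muscle after the femoral artery of one hindlimb had been ligated. The 6 genes were chosen by name as monocyte chemokines and CC receptors, and a probe set was taken where its single gene symbol was one of them. Each gene was matched by 1 probe set, so the members are 6 of the 31042 probe sets tested and 6 of the 14217 genes named by at least 1 probe set. The arrays measured RNA from the soleus, a calf muscle made mainly of slow-twitch fibres, of 9 male rats. SNX rats (n = 5, rats 12, 18, 20, 37 and 49) had undergone 5/6 nephrectomy, a surgical model of chronic kidney disease, and sham rats (n = 4, rats 11, 13, 15 and 17) a sham operation. All 9 rats, sham rats included, had the right femoral artery ligated and resected 8 weeks later, and both soleus muscles were taken after another 24 hours. The 4 groups are therefore sham left, sham right, SNX left and SNX right, with 1 array per limb and rat, and no group without ligation in the other limb was analysed here. Strain and age are not given in the sources used here. In the labels' source field both limbs are called nonischemic for sham and ischemic for SNX, which differs from the design text, so groups are named by operation and side.

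CC chemokines are small secreted proteins that attract leukocytes through G protein-coupled receptors. Ccl2 and Ccl7 are the main ligands of Ccr2, the receptor through which inflammatory monocytes leave the bone marrow and enter injured tissue, and Ccl7 also binds Ccr1. Ccl3 and Ccl4 are made mostly by activated macrophages and lymphocytes. Ccl3 also binds Ccr1. In skeletal muscle, Ccl2 and Ccr2 are known for the recruitment of the macrophages that clear damaged fibres and support regeneration, and CC chemokines have been studied in the growth of collateral arteries after an artery is closed. In the RefSeq gene table (GRCr8), Ccl2 and Ccl7 are direct neighbours, as are Ccl3 and Ccl4, and 3 genes lie between Ccr1 and Ccr2.

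Values are the authors' log2 values, on which a difference of 1 is a doubling. Array medians lay between 3.23 and 3.38, and a group mean below 4.28 (1 log2 unit above their median of 3.28) is called dim here, since a difference between dim values need not reflect RNA of that gene. The arrays correlated at 0.968 to 0.997 with each other. Those of the right soleus of rats 17 (sham) and 49 (SNX) stood apart from the other 16, with mean correlations of 0.978 and 0.980, and were most like each other (0.993). Results that rest on them are given with and without them. Genes common to all skeletal muscle fibres (5 genes, such as Acta1 and Ckm) had a mean between 14.97 and 15.23 on every array. This bears out skeletal muscle, but does not tell the soleus from other muscles. The mean of 7 slow fibre markers ranged widely, from 11.12 (SNX right, rat 20) to 14.92 (SNX left, rat 12). That of 8 fast fibre markers ranged from 14.44 to 14.88. The part of this spread in the comparisons below was not tested.

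Ccl2 and Ccl7 were higher in the right than in the left soleus of every rat, in sham and in SNX rats. Averaged over the sham and SNX changes, Ccl2 rose by 5.30 log2 units and Ccl7 by 4.48. Ccr1 was above the array median only in the right soleus of rats 17 and 49, while Ccl3, Ccl4 and Ccr2 stayed below the array medians on all arrays other than 1 for Ccl3. No member passed the test between SNX and sham rats in either limb.

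Ccl2, a monocyte chemoattractant made by many cell types under stress, read 4.75, 5.07, 6.16 and 4.91 in the left soleus of sham rats 11, 13, 15 and 17. The right soleus of the same rats read 10.93, 10.57, 9.57 and 12.76. All 4 right limb values were above all 4 left limb values, and the lowest of them came from the rat with the highest left limb value. In SNX rats 12, 18, 20, 37 and 49 the left soleus read 4.96, 4.10, 4.24, 4.52 and 4.07. The right soleus of these rats read 8.42, 9.26, 7.55, 9.44 and 11.55. Here too the limbs did not overlap, and rat 49 was the highest on the right and the lowest on the left. Within single rats the right limb was 10.6- to 231-fold above the left in sham rats and 9.92- to 179-fold in SNX rats, with rats 17 and 49 at the top of their groups. The left limb values of SNX rats 18, 20 and 49 lay below 4.28, the limit used for dim means, so their folds rest on low values.

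The group means of Ccl2 were 5.22 ± 0.64 (SD, n = 4) in sham left, 10.96 ± 1.33 (n = 4) in sham right, 4.38 ± 0.37 (n = 5) in SNX left and 9.24 ± 1.49 (n = 5) in SNX right. In order of level, sham right came first, then SNX right, sham left and SNX left; the 2 right groups overlapped, the 2 left groups overlapped, and the right and left groups did not. Ccl2 rose by 5.73 log2 units in sham rats (standard error, SE, 0.73; limma adjusted p = 0.0115), which was the largest rise of the 31042 probe sets. It rose by 4.87 in SNX rats (SE 0.65; adjusted p = 0.0173), the 4th largest rise. Averaged over both operations the rise was 5.30 (SE 0.49, 95% interval 4.25 to 6.34; adjusted p = 0.00018; higher in 9 of 9 rats). In this test 1 of the 6 members passed in sham rats, where 0.148% of all probe sets passed, 1 in SNX rats, where 0.0451% passed, and 2 in the average, where 2.55% passed. The calls within 1 operation were lost without some single rats. For sham rats these were rat 11, 13 or 17 (adjusted p up to 0.0996), and for SNX rats 12, 18 or 37. The averaged call held in all 26 alternatives run. Over both operations the right limb values of 2 members, Ccl2 and Ccl7, lay above all left limb values, as did those of 0.2% of all probe sets. Without the right limb arrays of rats 17 and 49 the averaged rise was 4.71 (SE 0.31; adjusted p = 2.81e-05). The muscle was measured as a whole, so more cells of a kind and more RNA per cell cannot be told apart.

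Ccl7, a second ligand of Ccr2 encoded next to Ccl2, was dim in the left soleus. The promoter table from RefSeq (GRCr8) held entries for 3 of the 6 members (Ccl7, Ccr1 and Ccr2). The window of Ccl7 is shown because Ccl7 is the one of them that passed a test in all the arrays. It lies at chr10:67513845-67514144 on the plus strand, from 250 bases before the gene's start to 50 bases from it, and capitals mark matches to the motifs searched.
Ccl7 promoter: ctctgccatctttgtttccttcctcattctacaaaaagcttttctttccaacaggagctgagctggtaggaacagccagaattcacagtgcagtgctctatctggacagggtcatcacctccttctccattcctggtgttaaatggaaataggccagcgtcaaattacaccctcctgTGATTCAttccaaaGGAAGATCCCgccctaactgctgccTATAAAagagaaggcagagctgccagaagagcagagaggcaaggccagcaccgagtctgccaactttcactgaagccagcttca
With the gene's first base counted as 0, the AP-1 motif (TGANTCA, its own reverse complement) matched at -73 to -67, the NF-kB consensus on the minus strand at -59 to -50, and TATAAA at -34 to -29, with no overlap between them. The hypoxia response core ACGTG had no match on either strand. Of the 33469 promoters of the table, 7.33% held the AP-1 motif, 7.51% the NF-kB consensus, 14.2% TATAAA and 19.3% ACGTG. The windows of Ccr1 and Ccr2 held none of these 4 motifs. A match describes the letters of the window and is not a measurement of binding.

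Ccl7 read 2.82, 2.56, 3.92 and 2.45 in the left soleus of sham rats 11, 13, 15 and 17, and 7.77, 7.77, 6.72 and 11.22 in the right. As for Ccl2, rat 15 had the highest left and the lowest right limb value and rat 17 the highest right limb value. In SNX rats 12, 18, 20, 37 and 49 it read 2.45, 2.53, 2.76, 2.53 and 2.99 on the left, and 4.40, 6.00, 4.25, 6.39 and 9.86 on the right. No right limb value of either operation fell among the left limb values, and 8 of the 9 left limb values lay at or below their array's median. A fold over the left limb therefore rests on a value near the floor of the table. The group means were 2.94 ± 0.68 (SD, n = 4) in sham left, 8.37 ± 1.96 (n = 4) in sham right, 2.65 ± 0.22 (n = 5) in SNX left and 6.18 ± 2.26 (n = 5) in SNX right. The order of the groups was that of Ccl2, with the 2 right groups and the 2 left groups again overlapping.

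Averaged over both operations Ccl7 rose by 4.48 log2 units (SE 0.71, 95% interval 2.96 to 5.99; adjusted p = 0.00707; higher in 9 of 9 rats). Its difference in sham rats was 5.43 (SE 1.06; adjusted p = 0.0585), the second largest rise as fitted, from a left limb value near the floor, and it did not pass. With the limbs of a rat treated as paired, by a random block, it passed (adjusted p = 0.013, where 1.8% of probe sets passed), but not with a fixed term per rat (adjusted p = 0.0912), and the blocked call was lost without sham rat 11, 13 or 17 (adjusted p 0.0615 to 0.0779). In SNX rats the difference was 3.52 (SE 0.95; adjusted p = 0.301, and 0.101 with the block, where 0.319% passed). The spread of the right limb groups was set in large part by the 2 arrays that stood apart. Without them the differences were smaller and their errors fell: 4.48 in sham rats (SE 0.51; adjusted p = 0.00338) and 2.60 in SNX rats (SE 0.45; adjusted p = 0.0818, where 0.0354% passed).

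The other pair of chemokines, Ccl3 and Ccl4, gave almost no signal. Ccl3, a macrophage product that binds Ccr1, read 2.19 to 2.27 on 17 arrays and 5.02 on the right limb array of sham rat 17. That single array made up the sham difference of 0.71 (SE 0.44; adjusted p = 0.515), and the SNX difference was 0.03 (SE 0.40; adjusted p = 0.997). The array of SNX rat 49, which was like that of sham rat 17 over the whole table, read 2.27 for Ccl3. Ccl4, a chemokine closely related to Ccl3, read 1.97 to 2.08 on 17 arrays and 2.36 on the same array of sham rat 17, below the array median on all 18. Values this low give no level, and the data do not tell whether Ccl3 or Ccl4 changed.

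The probe sets of both receptors lay below the array median on most arrays. Ccr1, a receptor on monocytes, macrophages and neutrophils, read 2.40, 2.56, 2.44 and 2.53 in the left soleus of sham rats 11, 13, 15 and 17, and 2.94, 3.19, 2.98 and 7.04 in the right. All 4 right limb values were above the left limb values, but only that of rat 17 lay above the array median. In SNX rats 12, 18, 20, 37 and 49 it read 2.45, 2.43, 2.44, 2.46 and 2.20 on the left, and 2.44, 2.93, 2.47, 2.81 and 6.21 on the right. The SNX limbs overlapped through rat 12, and rat 49 stood far above the others on the right and lowest on the left. In sham rats the limbs did not overlap for 3 members (Ccl2, Ccl7 and Ccr1), against 3.24% of all probe sets that were higher in the right limb without overlap. In SNX rats this held for 2 members (Ccl2 and Ccl7), against 1.38%.

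Ccr1 differed between the limbs by 1.56 log2 units in sham rats (SE 0.86; adjusted p = 0.475) and 0.98 in SNX rats (SE 0.77; adjusted p = 0.827), and by 1.27 in the average (SE 0.58; adjusted p = 0.252; higher in 8 of 9 rats). None of these passed. Without the arrays of rats 17 and 49 the differences were smaller, yet 2 of them passed: 0.56 in sham rats (SE 0.11; adjusted p = 0.0466, where 0.59% of probe sets passed) and 0.41 in the average (SE 0.07; adjusted p = 0.0151, where 2.11% passed). These small differences lie wholly below the array medians (2.20 to 3.19).

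Ccr2, the receptor of Ccl2 and Ccl7, read 2.30 to 2.41 on 16 arrays, 2.62 on the right limb array of sham rat 17 and 2.95 on that of SNX rat 49. All 18 values lay below the array medians, so no level of Ccr2 RNA was measurable in this muscle on this array, in either limb. The difference between the limbs was 0.05 in sham rats (SE 0.11; adjusted p = 0.813) and 0.13 in SNX rats (SE 0.10; adjusted p = 0.824), and the probe set was higher on the right in 5 of 9 rats.

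**Figure D1:**
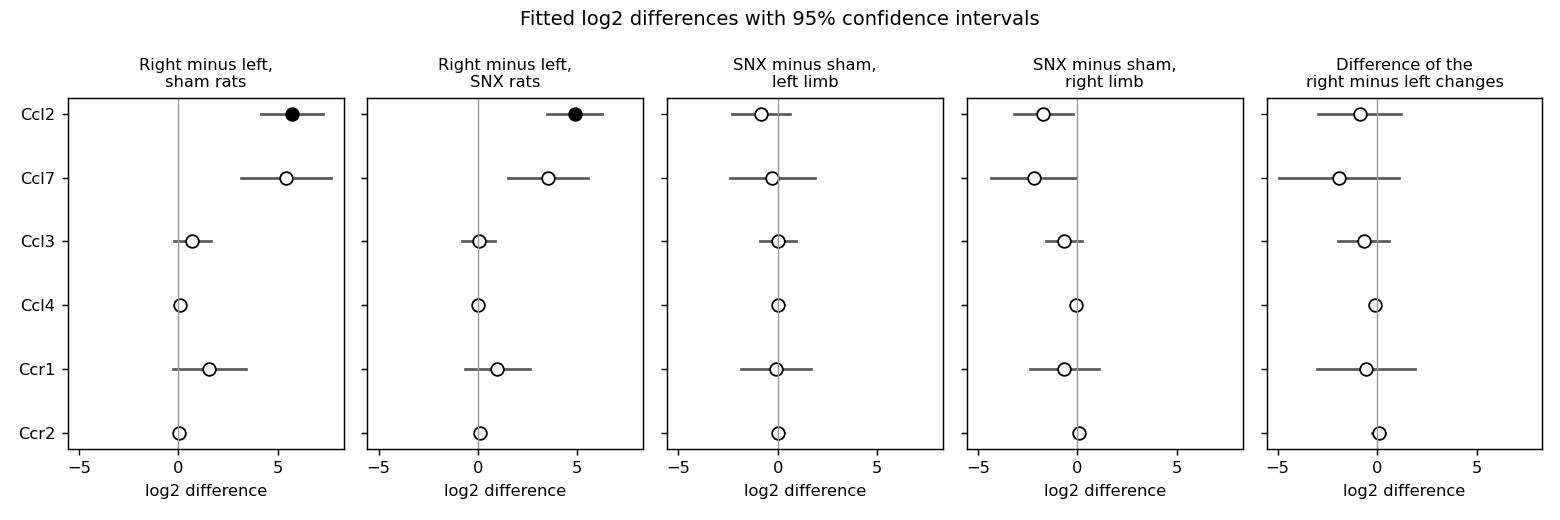
Log2 difference (horizontal axis) with its 95% interval for the 6 genes (vertical axis) in 5 comparisons, 1 per panel; filled points have a limma adjusted p under 0.05. The right minus left intervals of Ccl2 and Ccl7 lie above 0 in sham rats and in SNX rats, where the points of Ccl2 are filled, and no point is filled in the panels that set SNX against sham.

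The comparison of SNX with sham rats asks whether kidney disease altered the level of these genes in the ligated or the other limb. In the right soleus Ccl2 was 1.71 log2 units lower in SNX than in sham rats (SE 0.69, 95% interval -3.19 to -0.24), and Ccl7 was 2.19 lower (SE 1.003, interval -4.33 to -0.05). Neither passed (adjusted p = 0.497 for both), and the values of the 2 groups overlapped for all 6 members. Among all probe sets 0.0% passed in this comparison, and 2872 had an unadjusted p under 0.05. With the block the adjusted p of both genes was 0.488. Ccr1 differed by -0.66 (SE 0.82; adjusted p = 0.66). The median difference of the 6 genes was -0.67, with 1 of 6 above 0, beside a median of 0.02 over all genes; without the arrays of rats 17 and 49 it was -0.17, with 3 of 6 above 0. Monocyte and macrophage markers also lay lower in SNX rats, with a right limb median of -0.67 (1 of 13 above 0; -0.48 without the 2 arrays) and a left limb median of -0.98 (0 of 13), and none of them passed. Fibroblast markers had medians of -0.49 on the right (1 of 7 above 0) and -0.83 on the left (0 of 7), and endothelial markers -0.33 and -0.29 (0 of 6 in both). Slow fibre markers had medians of -0.52 on the right (0 of 7 above 0) and 0.20 on the left (7 of 7), and none passed. The part of these cells and fibres in the chemokine differences was not tested.

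The 2 right limb arrays that stood apart lie at the top of both groups for Ccl2, Ccl7 and Ccr1. Without them Ccl2 averaged 10.35 ± 0.71 (SD, n = 3, 9.57 to 10.93) in sham right and 8.67 ± 0.86 (n = 4, 7.55 to 9.44) in SNX right. Ccl7 averaged 7.42 ± 0.60 (6.72 to 7.77) and 5.26 ± 1.09 (4.25 to 6.39). Ccr1 averaged 3.04 ± 0.13 (2.94 to 3.19) and 2.67 ± 0.24 (2.44 to 2.93). In each of these 3 genes the lowest sham array was then above the highest SNX array, which held for 3.2% of all probe sets in this direction and 12.2% in the opposite one. The arrays were left out after the data had been seen, and with them the groups overlapped for all 3 genes. For Ccr1 all of the remaining values lie below the array medians, where a difference need not reflect its RNA. The differences were near those of all arrays, at -1.69 for Ccl2 (SE 0.47; adjusted p = 0.403), -2.16 for Ccl7 (SE 0.51; adjusted p = 0.291) and -0.37 for Ccr1 (SE 0.11; adjusted p = 0.419), and none passed.

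In the left soleus Ccl2 differed between SNX and sham rats by -0.85 (SE 0.69, 95% interval -2.32 to 0.63; adjusted p = 0.881), and the group ranges overlapped for all 6 members. Of all probe sets 0.00644% passed, and no member did. The change from left to right differed between the operations by -0.87 for Ccl2 (SE 0.98, interval -2.95 to 1.22) and -1.90 for Ccl7 (SE 1.42, interval -4.93 to 1.12), with an adjusted p of 0.9999 for both. In this comparison too 0.0% of probe sets passed, and 437 had an unadjusted p under 0.05. The intervals include no difference. They also include a rise smaller in SNX rats by more than 2 log2 units and a rise larger in SNX rats by more than 1 log2 unit.

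Ccl2 and Ccl7 differed together from rat to rat. The right minus left difference of Ccl2 was 6.18, 5.50, 3.40 and 7.85 in sham rats 11, 13, 15 and 17, and that of Ccl7 was 4.94, 5.21, 2.80 and 8.76. In SNX rats 12, 18, 20, 37 and 49 the differences of Ccl2 were 3.47, 5.15, 3.31, 4.91 and 7.48, and those of Ccl7 were 1.94, 3.47, 1.49, 3.85 and 6.86. Rats 17 and 49 had the largest differences of both genes, and rats 12, 15 and 20 the smallest. Over the 9 rats Pearson's r was 0.962 (exact permutation p = 5.24e-05, 0.000157 after Benjamini-Hochberg adjustment over 3 relations) and Spearman's rho was 0.95 (exact permutation p = 0.000353, adjusted 0.00106). Without rats 17 and 49, the 2 farthest from the median of Ccl2, r was 0.922. The points pool sham and SNX rats, whose differences overlap, and both genes were read from the same arrays.

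**Figure D2:**
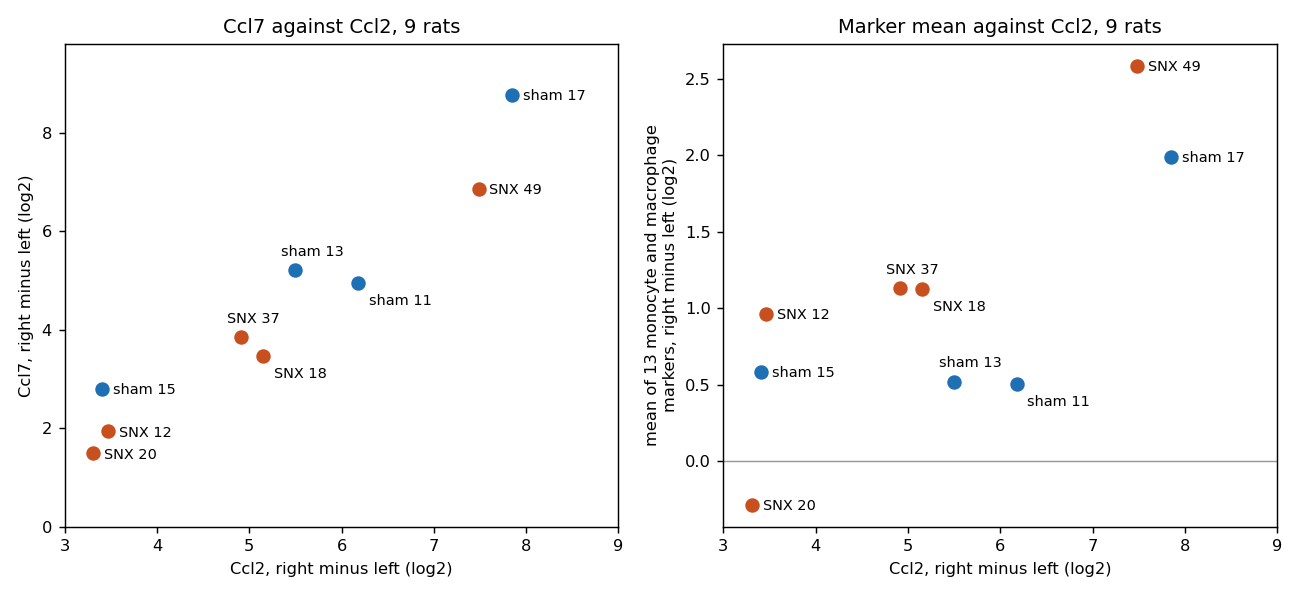
Right minus left log2 difference in each of the 9 rats: Ccl2 (horizontal axis) against Ccl7 and against the mean of 13 monocyte and macrophage markers (vertical axes), with rat numbers beside the points (blue sham, orange SNX). Ccl7 follows Ccl2 over all rats (r = 0.962), while the markers follow it mainly through rats 17 and 49 (r = 0.758, and 0.288 without them).

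Markers of monocytes and macrophages were examined on the same arrays, since these cells both make and answer CC chemokines. The mean of the 13 measured genes of a list of 15 ranged from 5.47 to 6.18 in sham left, 5.97 to 8.16 in sham right, 4.83 to 5.48 in SNX left and 5.19 to 7.59 in SNX right. The highest values were those of sham rat 17 (8.16) and SNX rat 49 (7.59), and none of the other 16 arrays exceeded 6.70. All 13 were higher on the right in the average (median 0.82, and 0.46 without the 2 arrays). Of the 13, 1 passed and 7 did with the block, beside 2.55% and 9.05% of all probe sets. The gene that passed was Cd14, the lipopolysaccharide co-receptor of monocytes, which rose by 2.36 (SE 0.51; adjusted p = 0.029; 9 of 9 rats). Cx3cr1, a receptor of patrolling monocytes, lay at or below the array median on all 18 arrays. Rats with a larger Ccl2 difference had a larger marker difference by Pearson's r (0.758, exact permutation p = 0.0175, adjusted 0.023) but not by rank (rho 0.55, exact permutation p = 0.133, adjusted 0.133), and without rats 17 and 49 r was 0.288. For Ccl7 r was 0.739 (exact permutation p = 0.023, adjusted 0.023), rho 0.567 (exact permutation p = 0.121, adjusted 0.133), and r without these rats 0.274. The markers' part in the rise of Ccl2 and Ccl7 was not tested.

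Markers of other leukocytes were examined in the same way. The mean of 6 measured neutrophil markers ranged from 2.98 to 4.11 in sham left, 3.10 to 4.50 in sham right, 2.95 to 3.31 in SNX left and 2.98 to 3.90 in SNX right, and Cxcr2, Mmp8 and Camp were at or below the array median everywhere. S100a8 and S100a9, calcium-binding proteins of neutrophils and monocytes, were above it on all 18 arrays (up to 7.56 and 9.60), and differed by 0.37 (adjusted p = 0.717) and 0.31 (adjusted p = 0.77) in the average. The 10 T and NK cell markers averaged 2.59 to 2.70 on all arrays, 7 of them at or below the array median everywhere, and both measured B cell markers were too. Mast cell markers (5 genes) reached 3.63 on the right limb array of sham rat 17 and 3.93 on that of SNX rat 49, and at most 3.31 on the other 16; of these, Cpa3, a mast cell protease, was above the array median on all 18 (group means 4.59 to 5.13). No neutrophil or T and NK cell marker passed the averaged right minus left test. The part of these cells in the values of Ccl3, Ccr1 and Ccr2 on the arrays of rats 17 and 49 was not tested.

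Markers of resident cells were compared between the limbs as well. Of 6 endothelial markers 2 passed in the average, beside 2.55% of all probe sets. They were Kdr, the VEGF receptor (0.85, SE 0.15, adjusted p = 0.0105, 9 of 9 rats), and Pecam1, a junction protein (0.34, SE 0.08, adjusted p = 0.0421, 9 of 9 rats, adjusted p = 0.0728 without the arrays of rats 17 and 49). With the block Tek, the angiopoietin receptor, was lower (-0.58, adjusted p = 0.0109). The endothelial mean ranged from 7.71 to 8.24 in sham left, 7.77 to 8.66 in sham right, 7.43 to 8.03 in SNX left and 7.68 to 7.99 in SNX right, with the arrays of rats 17 and 49 at 7.77 and 7.81. All 7 fibroblast markers were above 0 in the average (median 0.50, and 0.32 without the 2 arrays). None passed, and 1 did with the block, where 9.05% of all probe sets passed. Their mean ranged from 10.80 to 11.61, 10.87 to 11.86, 9.94 to 10.80 and 10.73 to 11.26 in the same order of groups. Slow fibre markers had fitted group differences of opposite sign in the 2 operations. They were higher on the right in 7 of 7 genes in sham rats (median 0.42, and 0.66 without the 2 arrays). In SNX rats this held for 0 of 7 (median -0.33, and -0.42 without them), and none passed in either. The rats of each operation disagreed, however. The mean of these markers was higher on the right in sham rats 11 and 17 and lower in sham rats 13 and 15. Among SNX rats it was higher on the right in rats 18, 37 and 49 and lower in rats 12 and 20. The part of these cells and fibres in the rise of Ccl2 and Ccl7 was not tested.

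**Figure D3:**
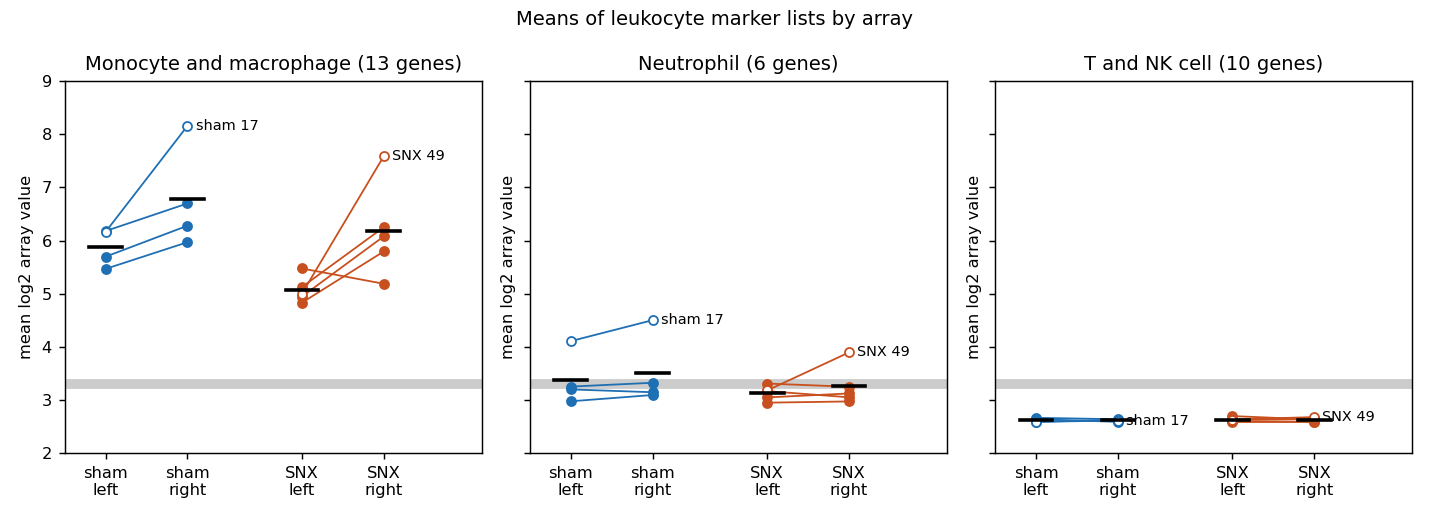
Mean log2 value (vertical axis) of the monocyte and macrophage (13 genes), neutrophil (6) and T and NK cell (10) marker lists on each array by group (horizontal axis), with open circles for the right soleus of rats 17 and 49. Those 2 arrays hold the highest monocyte and macrophage means (8.16 and 7.59, against at most 6.70 elsewhere), and the T and NK cell means stay at 2.59 to 2.70.

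In the rest of the CC chemokine system few genes passed. Where such a gene was dim, the lack of a call does not tell whether it changed. Of 12 other CC chemokines measured, none passed the averaged right minus left test, with or without the block (median difference 0.03, beside -0.01 over all genes). Ccl6, which was well expressed (group means 9.18, 9.51, 7.98 and 8.79 in sham left, sham right, SNX left and SNX right), differed by 0.57 (SE 0.26; adjusted p = 0.25). Ccl5, a lymphocyte and platelet chemokine that binds Ccr1, was dim in every group (2.08 to 2.64). Of 9 other CC and atypical receptors 1 passed, beside 2.55% of all probe sets (median -0.01). This was Ackr1, a receptor of venular endothelium and red cells that binds Ccl2 and Ccl7 without signalling, which rose by 0.98 (SE 0.18; adjusted p = 0.0139; 9 of 9 rats; adjusted p = 0.0508 without sham rat 11). Its group means were 4.82 in sham left, 5.98 in sham right, 4.56 in SNX left and 5.36 in SNX right.

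Among 22 inducers and brakes of chemokine transcription, 1 passed in the average (2.55% of all probe sets did), and with the block 5 were higher and 1 lower (9.05% did, in either direction). The median difference was 0.39, and 0.27 without the arrays of rats 17 and 49, where 3 passed (2.11% of all did). Junb, a subunit of the AP-1 factor, rose by 2.95 (SE 0.25, adjusted p = 0.000179, 9 of 9 rats), from 4.75 to 8.22 in sham rats and from 4.67 to 7.11 in SNX rats, and passed in both operations alone. Without the arrays of rats 17 and 49 no gene of this list, Junb included, passed in SNX rats alone. Atf3, another stress-induced AP-1 family member, was higher by 2.09 (SE 0.65; adjusted p = 0.0925, and 0.031 with the block). Fos, an AP-1 subunit, was higher by 1.76 (adjusted p = 0.0302 with the block and 0.111 without), and Zfp36, which destabilises inflammatory transcripts, by 0.93 (0.0479 and 0.188). Zc3h12a, an RNase that degrades inflammatory transcripts, was higher by 0.66 (adjusted p = 0.0845, and 0.0185 with the block). Dusp1, a phosphatase that restrains MAP kinases, was the 1 that was lower with the block, by -0.53 (adjusted p = 0.0305 with the block and 0.106 without). Among cytokines known to induce Ccl2, Tnf read at most 2.48 on any array, and Il1b at most 4.73, and the group means of Il1b and Il6 were dim. Il6 reached 6.79 on 1 array, with group means of 2.43 in sham left, 3.96 in sham right, 2.44 in SNX left and 2.48 in SNX right. In the average Il1b differed by 0.52 (adjusted p = 0.179) and Il6 by 0.78 (adjusted p = 0.308). Without the arrays of rats 17 and 49 both passed with smaller differences, Il1b at 0.23 (adjusted p = 0.0435) and Il6 at 0.29 (adjusted p = 0.0332), as they did in sham rats alone (adjusted p = 0.0225 and 0.0189).

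The 13 measured genes of CC receptor signalling had a median difference of 0.28, and 0.03 without the arrays of rats 17 and 49. Of them 1 passed in the average, beside 2.55% of all probe sets. It was Stat3, a transcription factor used by many cytokine receptors besides, which rose by 1.25 (SE 0.22; adjusted p = 0.0126; 9 of 9 rats); the call was lost without sham rat 11 (adjusted p = 0.067), sham rat 17 (0.0582) or SNX rat 37 (0.0501). Of 12 genes of monocyte growth factors and endothelial docking 1 passed, and 5 with the block, beside 2.55% and 9.05% of all probe sets (median 0.51, and 0.25 without the 2 arrays). Icam1, the endothelial ligand of leukocyte integrins, rose by 1.39 (SE 0.28; adjusted p = 0.0198; 8 of 9 rats), from 5.61 to 6.95 in sham and from 4.64 to 6.07 in SNX rats. Its call was lost without sham rat 11, 13 or 17 or SNX rat 37 (adjusted p 0.0664 to 0.0776). Itgb2, the common chain of leukocyte integrins, was higher by 2.41 (adjusted p = 0.0313 with the block, 0.0871 without it and 0.0539 without the 2 arrays). Vcam1 (0.67) and Selp (0.35), further endothelial adhesion molecules, and Csf1r (1.09), the macrophage growth factor receptor that is also among the macrophage markers, passed with the block alone (adjusted p = 0.0266, 0.0157 and 0.0398). Between SNX and sham rats no gene of these 5 lists passed in either limb.

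Candidates were 8484 genes whose mean was above the dim limit in any group, which a gene bright in the right limb alone also meets. Those whose right minus left difference followed that of Ccl2 most closely over the 9 rats were Pgd, Bmp2k, Gngt2 and Wdr81 (Pearson's r 0.981 each) and Srsf1 (0.98). Their own mean differences were small beside that of Ccl2, from 0.20 (Srsf1) to 1.37 (Gngt2), and Ccl7 itself followed after 19 of these genes. For Ccl7 they were Cers5 (0.983), Gcnt2 (0.97), Rps24, Lilrb4 and Spn (0.969 each), with mean differences from 0.06 (Rps24) to 2.85 (Lilrb4). These correlations describe 9 rats that share 2 arrays standing apart. Without rats 17 and 49 they were 0.951 to 0.969 for the genes like Ccl2 and 0.915 to 0.977 for those like Ccl7. The genes were picked by their correlation over rats that include the remaining ones, so these values are no independent check.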

How the data were processed

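Soleus RNA of both limbs of 4 sham and 5 SNX rats was measured on 18 Affymetrix arrays, each from 2 µg of total RNA (per the labels' protocols). The authors deposited 1 table of log2 values, already normalized (range 0.800 to 15.9); per the submitters' processing notes the tools were among RMA, GCRMA and Partek, with no role stated. These methods treat the background differently, which affects dim probe sets most. Arrays hold no read depth, and their number limits the precision.

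After removal of 57 control probe sets, 31042 were tested. Symbols came from the platform annotation, updated through Entrez IDs to RefSeq GRCr8 (20758 of 20826 probe sets with 1 gene; 436 list several and 9780 none, and these were not named). A gene's main probe set was the one with the highest mean. No arrays were identical. Samples were grouped by their titles, whose number was read as the rat.

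One mean per group was fitted with limma 3.58.1 (R 4.3.3; lmFit, eBayes; 14 residual and 1.02 prior degrees of freedom), two-sided, with Benjamini-Hochberg adjustment over all probe sets and a threshold of 0.05. Both limbs come from 1 animal; in 7 of 9 rats the paired limbs' deviations from the group means had a correlation above 0.1, and a fit with a random block per rat (consensus correlation 0.297) is given where it changes a call. Correlations used exact permutation tests (two-sided). On simulated data with 200 of 31042 probe sets changed, taken from the brighter ones, changes of 1 and 2 log2 units were called in 80% and 99% for the averaged right minus left comparison, 63% and 94% in sham rats, and 66% and 95% in SNX rats. The simulated noise was independent between arrays, without paired limbs or arrays that stood apart. These rates therefore need not hold for the real arrays, where Atf3 and Itgb2 differed by more than 2 log2 units in the average and did not pass.

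The members, gene lists and tests were chosen with earlier results of these data known. The text names the 6 members, genes of the CC chemokine and related lists that passed or were examples of their list, some cell type markers, and the 5 genes most like Ccl2 and Ccl7. The examples Il6, Il1b, Tnf, Cx3cr1, S100a8, S100a9 and Cpa3 were chosen after their values were seen.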

Additional observations from a re-analysis of the deposited data

Results flagged for a closer look

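In groups of 4 or 5 arrays, a single array lay far from the others in 6 of the 28 groups examined. For independent groups chance alone would give about 1 in 20. These groups reuse the same arrays, and those of rats 17 and 49 were already known to stand apart. The count is therefore no measure of an excess over chance. Of the 6 flagged groups, 3 are on the right limb array of sham rat 17: Ccl3 at 5.02 (the others 2.19 to 2.23), Ccr1 at 7.04 (2.94 to 3.19) and Ccr2 at 2.62 (2.30 to 2.33). On the right limb array of SNX rat 49, Ccr1 read 6.21 (the others 2.44 to 2.93) and Ccr2 2.95 (2.33 to 2.41). The left limb array of SNX rat 49 read 2.20 for Ccr1 (the others 2.43 to 2.46), all below the array median.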

How the results depend on the processing

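The averaged right minus left rise of Ccl2 (4.68 to 5.69) and of Ccl7 (3.53 to 4.92) passed in all 26 alternatives, and no member passed between SNX and sham rats, or for the difference of the changes, in any of them. These alternatives include the fit to brighter probe sets alone, which Ccl7 joins only through its right limb values. That fit adds no support to the averaged call of Ccl7. Within 1 operation the calls moved. For sham rats 2 members passed with the replicate block (random; 1.8% of probe sets did) or among brighter probe sets alone (0.934%), 0 with only the groups compared, and 3 without the arrays of rats 17 and 49, with the block (3.13%) or without it (0.59%); leaving out 1 rat gave 0 to 2. For SNX rats 0 passed with a fixed term per rat or with only the groups compared, and 2 without those arrays and with the block, a setting chosen after seeing the data; leaving out 1 rat gave 0 to 1. Ccl2 missed the threshold with only the groups compared in sham (5.73, adjusted p = 0.0665) and SNX rats (4.87, 0.164) and with a fixed rat term in SNX rats (4.87, 0.106); leaving out 1 rat gave 5.03 to 6.51 and 4.21 to 5.25 (with the block and without SNX rat 37, 4.85). Ccl7 passed in sham rats with the random block (5.43), among brighter probe sets (5.43), which it joins only through its right limb values, so that this call adds no support, and without the arrays (4.48, and 4.42 with the block), and in SNX rats without them and with the block (2.63, adjusted p = 0.0243); leaving out 1 rat gave 4.32 to 6.31 and 2.69 to 4.03. Ccr1 passed without the arrays and with the block at 0.56 in sham rats and 0.41 in the average.

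Signs turned only in uncalled differences, mostly of dim genes. Without the arrays of rats 17 and 49 (then with the block), right minus left became -0.00814 (-0.0088) for Ccl4 and -0.0231 (-0.0239) for Ccr2 in sham rats, and -0.00677 (-0.00521) and -0.00749 (-0.00797) in the average. SNX minus sham on the right became 0.0217 (0.0178) for Ccl3 and 0.0257 (0.0302) for Ccl4, and the difference of the changes 0.0198 (0.0158) and 0.00275 (0.0072). Median centring and quantile normalization gave -0.013 and -0.00893 for Ccl3 and -0.00403 and -0.00254 for Ccr2 in the left limb. Leaving out 1 rat gave ranges across 0. For right minus left these were -0.01 to 0.113 (Ccl4) and -0.0254 to 0.0879 (Ccr2) in sham rats, -0.0105 to 0.00544 (Ccl4) in SNX rats and -0.00751 to 0.0539 (Ccl4) in the average. For SNX minus sham they were -0.449 to 0.0416 (Ccl7) and -0.00391 to 0.00849 (Ccl3; -0.00257 without sham rat 13 and -0.00127 without sham rat 15) on the left, and -0.915 to 0.0272 (Ccl3), -0.103 to 0.0261 (Ccl4), -1.37 to 0.337 (Ccr1) and -0.0348 to 0.16 (Ccr2) on the right. For the difference of the changes they were -0.914 to 0.0188 (Ccl3), -0.118 to 0.00506 (Ccl4), -1.34 to 0.41 (Ccr1) and -0.0461 to 0.151 (Ccr2). The causes were not tested.

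The mean over several probe sets gave no value, since each member has 1. The fixed rat term was not run between operations, and only Ccl2 and Ccl7 remained among brighter probe sets. Below the array median, differences of Ccl3, Ccl4, Ccr1 and Ccr2 are limited by signal over background.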
